A study of Mus musculus with 11 samples.

Results

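The 10 genes described here encode the core of the Notch pathway: the receptors *Notch1*, *Notch2* and *Notch3*, the ligands *Jag1*, *Jag2* and *Dll1*, the target genes *Hes1* and *Hey1*, and *Rbpj* and *Maml1* of the nuclear complex. They were chosen by name from the 55536 Ensembl genes in the count files, and all 10 passed the filter on low counts that kept 20307 genes. RNA was measured in 11 libraries of epidermal cells from the dorsal skin of male *CD4Cre* R26-tdT mice (C57Bl6/N background), with cells of 2 mice pooled per library, aged 29 weeks for replicate 1 and 32 weeks for replicates 2 and 3. In these mice Cre under control of *Cd4* switches on tdTomato (tdT), so a tdT+ cell expressed the Cre or descends from a cell that did, and both the tdT+ and the tdTneg cells carry the same transgenes. All sorted cells were CD49f+CD34+, where CD49f is an integrin of basal keratinocytes and CD34 marks the hair follicle bulge. They were divided by the surface protein SCA-1, which marks the upper follicle and the basal layer of the interfollicular epidermis, and by tdT into tdT+ SCA-1neg (n = 3), tdTneg SCA-1neg (n = 3), tdT+ SCA-1+ (n = 3) and tdTneg SCA-1+ (n = 2) cells.

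Notch receptors are single-pass membrane proteins that bind ligands on a neighbouring cell. Binding exposes the receptor to ADAM proteases and then to gamma-secretase, and the freed intracellular domain joins the DNA-binding protein RBPJ and the coactivator MAML1 to switch on targets such as *Hes1* and *Hey1*. In the epidermis the pathway is known for its part in the commitment of basal keratinocytes to differentiation and in the maintenance of hair follicles.

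Totals ranged from 17409131 to 46542177 counts per library. In every library the 6 keratinocyte markers summed to between 19150 and 35750 normalized CPM (counts scaled to the library's size). The 8 bulge markers summed to 11630 to 22330 CPM in the SCA-1neg and to 4413 to 7418 CPM in the SCA-1+ libraries, and all 8 were lower in SCA-1+ cells by the test below (7 with the replicate number as a block). RNA of *Cd34*, the gene of the sort marker, was at 468 to 1130 CPM in the SCA-1neg and at 320 and 383 CPM in the tdTneg SCA-1+ libraries, but at 24.3, 35.7 and 22.4 CPM in the tdT+ SCA-1+ libraries, which the labels also give as CD34+. The files hold 1 further row that is no Ensembl gene. It held 133 to 307 CPM in 5 of the 6 tdT+ libraries and 2.54 to 4.89 CPM in the tdTneg libraries, but 2.05 CPM in the library labelled tdT+ SCA-1neg replicate 2, which thereby stood with the tdTneg libraries. Comparisons of tdT+ SCA-1neg cells rest in part on this library. For the genes and marker lists compared through this group, what was called without it is given too.

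*Notch3* and *Dll1* were the members that differed between the populations, both higher in SCA-1+ cells, and the bases before their annotated starts are shown for that reason. The windows hold the 250 bases before the start in RefSeq (GRCm38.p6), 5′ to 3′ on the minus strand, at chr17:32166891-32167140 for *Notch3* and chr17:15376933-15377182 for *Dll1*. Capitals mark every match to 1 of 4 patterns, on either strand and without overlap among them. The patterns were the RBPJ core TGGGAA, the N-box CACNAG that HES proteins can bind, the AP-1-like TGANTCA and the GC box GGGCGG. N stands for any base.
Notch3: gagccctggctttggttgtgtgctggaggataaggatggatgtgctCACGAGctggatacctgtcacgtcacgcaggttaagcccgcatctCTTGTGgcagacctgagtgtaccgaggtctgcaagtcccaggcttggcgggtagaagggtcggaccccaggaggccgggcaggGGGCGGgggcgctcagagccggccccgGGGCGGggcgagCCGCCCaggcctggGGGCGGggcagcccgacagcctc
Dll1: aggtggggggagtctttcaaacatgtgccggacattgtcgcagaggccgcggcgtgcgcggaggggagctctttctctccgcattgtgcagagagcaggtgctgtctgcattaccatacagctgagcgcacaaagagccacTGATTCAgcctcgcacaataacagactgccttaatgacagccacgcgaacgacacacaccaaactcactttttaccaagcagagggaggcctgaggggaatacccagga
The *Notch3* window held 4 GC boxes and 2 N-boxes, and the *Dll1* window held 1 match to the AP-1-like pattern, with T in the place of N. Of 32851 RefSeq windows of this length, 32.7% held a GC box, 36.7% an N-box and 6.75% the AP-1-like pattern. The letters of the RBPJ core were in neither window. Among the 8 members with an entry they were found in the window of *Rbpj* alone, against 21.6% of all windows. This window lies before a RefSeq start 124194 bases from the GENCODE start of *Rbpj*, and that of *Notch1* before one 12841 bases away. Bases G and C made up 68.8% of the *Notch3* and 56.0% of the *Dll1* window, against a median of 52.4%. *Dll1* lies at 15367354 to 15376872 and *Notch3* at 32120820 to 32166852 on chromosome 17. The *Dll1* window also lies within A930024N18Rik, a non-coding gene on the opposite strand.

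Between the SCA-1+ and SCA-1neg populations, averaged over tdT status, 2 of the 10 members were called higher and 0 lower. A gene was called when its edgeR adjusted p was under 0.05 and its log2 fold change was over 1 in size. Of all genes tested, 11.6% were called, with 4.77% higher and 6.79% lower in SCA-1+ cells. With the adjusted p alone, 3 members passed, all higher, against 19.3% of all genes. The median log2 fold change was 0.28 over the members and -0.09 over all genes tested. *Notch3* and *Dll1* were also the members whose SCA-1+ and SCA-1neg libraries did not overlap, as did not those of 10.8% of all genes.

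**Figure D1:**
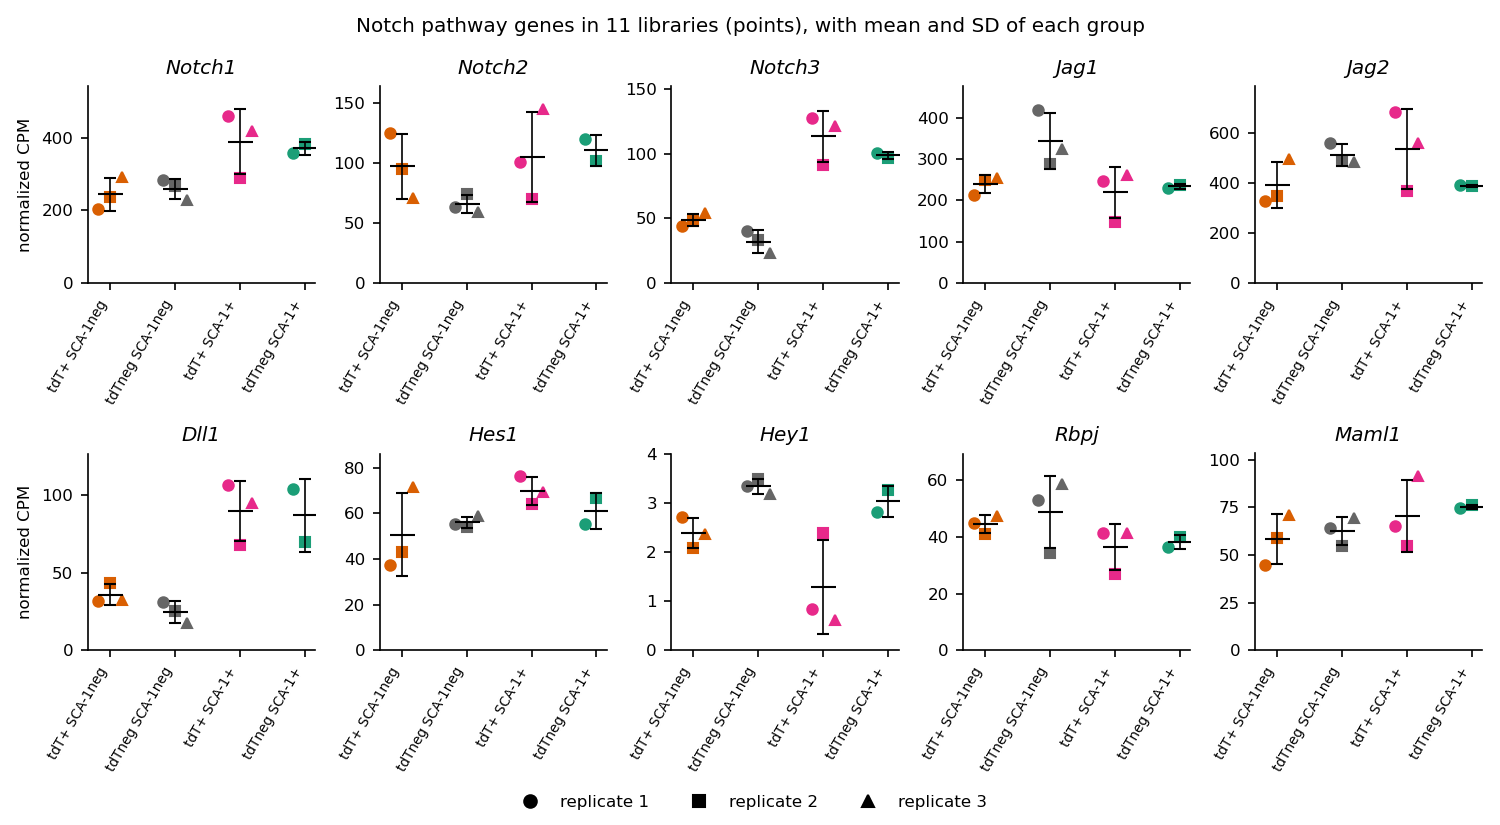
Normalized CPM (y axis, from 0) of the 10 genes in the 4 sorted groups (x axis), with 1 point per library shaped by replicate number and black bars for the mean and SD of 3 libraries, or 2 for tdTneg SCA-1+. All SCA-1+ libraries of *Notch3* lie at or above 91.1 CPM and all SCA-1neg libraries at or below 53.8 CPM, and for *Dll1* the same limits are 68.3 and 43.5 CPM.

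Among the receptors, *Notch3* (ENSMUSG00000038146) had 44.0, 48.3 and 53.8 normalized CPM in the tdT+ SCA-1neg libraries and 40.4, 32.9 and 22.9 CPM in the tdTneg SCA-1neg libraries. Its levels in SCA-1+ cells were 128, 91.1 and 122 CPM in tdT+ and 101 and 97.1 CPM in tdTneg libraries. Every SCA-1+ library was thus above every SCA-1neg library. The log2 fold change was 1.42 (SE 0.15, edgeR adjusted p = 0.000374), or 2.68-fold. It was 1.22 (SE 0.21, adjusted p = 0.00529) within tdT+ cells and 1.62 (SE 0.23, adjusted p = 0.00694) within tdTneg cells. Without the library labelled tdT+ SCA-1neg replicate 2, the edgeR fit gave 1.42 between populations (adjusted p = 0.000985) and 1.21 within tdT+ cells (adjusted p = 0.0179). The level was highest in tdT+ SCA-1+ cells (114 ± 19.6 CPM, SD, n = 3), next in tdTneg SCA-1+ (98.9 ± 2.50, n = 2), then in tdT+ SCA-1neg (48.7 ± 4.93, n = 3) and lowest in tdTneg SCA-1neg cells (32.1 ± 8.74, n = 3). Neither neighbouring pair that shares a population passed the test.

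*Notch1* (ENSMUSG00000026923, chromosome 2, 26457903 to 26516663), the receptor most studied in epidermal differentiation, had 204.5, 236 and 294 CPM in tdT+ SCA-1neg and 283, 267 and 228 CPM in tdTneg SCA-1neg libraries. It had 462, 288 and 419 CPM in tdT+ SCA-1+ and 359 and 383 CPM in tdTneg SCA-1+ libraries. The ranges overlapped through the SCA-1+ library at 288 CPM. Its log2 fold change of 0.59 (SE 0.15, edgeR adjusted p = 0.0215) passed the adjusted p and stayed under the fold threshold, so it was not called. Over the 16 alternatives its adjusted p ranged from 0.000933 to 0.0787 and was under 0.05 in 13, with the highest value when tdTneg SCA-1+ replicate 2 was left out. *Notch2* (ENSMUSG00000027878, chromosome 3, 98013527 to 98150361) ranged from 59.2 to 125 CPM in SCA-1neg and from 70.0 to 145 CPM in SCA-1+ libraries. It did not pass the test between populations (log2 fold change 0.44, 95% CI -0.01 to 0.88, adjusted p = 0.153).

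Per kilobase of exon, *Notch1* was the highest receptor in every group, with 18.2 ± 2.00 CPM per kb in tdTneg SCA-1neg and 27.4 ± 6.35 in tdT+ SCA-1+ cells (SD, n = 3 each). The lowest receptor in tdTneg SCA-1neg cells was *Notch3* with 3.97 ± 1.08 CPM per kb, under *Notch2* with 6.07 ± 0.693 (SD, n = 3 each). In tdT+ SCA-1+ cells *Notch3* had 14.04 ± 2.43 and *Notch2* 9.74 ± 3.48 CPM per kb (SD, n = 3 each). The share of *Notch3* in the summed per-kilobase level of the 3 receptors was 18.7% ± 1.20 in tdT+ SCA-1neg and 13.9% ± 2.29 in tdTneg SCA-1neg cells (SD, n = 3 each). It was 27.7% ± 1.84 in tdT+ SCA-1+ (n = 3) and 25.2% ± 0.472 in tdTneg SCA-1+ cells (n = 2). These shares are a description and were not tested.

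Among the ligands, *Dll1* (ENSMUSG00000014773), a Delta-type ligand, had 32.0, 43.5 and 32.2 CPM in tdT+ SCA-1neg and 31.5, 25.2 and 17.5 CPM in tdTneg SCA-1neg libraries. In SCA-1+ cells it had 106.5, 68.3 and 95.2 CPM in tdT+ and 104 and 70.2 CPM in tdTneg libraries. The populations did not overlap, and replicate 2 was the lowest SCA-1+ library of *Dll1* in either tdT status. The log2 fold change was 1.57 (SE 0.19, edgeR adjusted p = 0.00066), or 2.97-fold. Within tdT+ cells it was 1.32 (SE 0.26, adjusted p = 0.0105) and within tdTneg cells 1.82 (SE 0.28, adjusted p = 0.00994). When the library labelled tdT+ SCA-1neg replicate 2 was left out, the edgeR fit gave 1.65 between populations (adjusted p = 0.00103) and 1.48 within tdT+ cells (adjusted p = 0.0156). Members called higher within each tdT status were again *Notch3* and *Dll1*, 2 of 10 in both, against 2.91% of all genes within tdT+ and 3.29% within tdTneg cells. Leaving out tdTneg SCA-1+ replicate 1 left 1 library in that group, which was assumed to vary like the other groups. Within tdTneg cells the log2 fold changes were then 1.59 for *Notch3* (edgeR adjusted p = 0.0677) and 1.49 for *Dll1* (edgeR adjusted p = 0.106), about as large but not called.

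The Serrate-type ligands *Jag1* and *Jag2* were the more abundant ligands and were not called between populations. *Jag1* (ENSMUSG00000027276, chromosome 2, 137081456 to 137116644) had 214, 250 and 255 CPM in tdT+ SCA-1neg and 420.5, 287 and 326 CPM in tdTneg SCA-1neg libraries. Its SCA-1+ libraries had 248, 148 and 262.5 CPM in tdT+ and 230.1 and 238.5 CPM in tdTneg cells. The tdTneg SCA-1neg libraries were the highest of the 11, and the log2 fold change between populations was -0.34 (95% CI -0.71 to 0.03, adjusted p = 0.179). *Jag2* (ENSMUSG00000002799, chromosome 12, 112907819 to 112929776) ranged from 329 to 561 CPM in SCA-1neg and from 367.5 to 684 CPM in SCA-1+ libraries, with a log2 fold change of 0.03 (95% CI -0.36 to 0.42, adjusted p = 0.927), or -0.01 without the library labelled tdT+ SCA-1neg replicate 2.

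Per kilobase of exon the ligands stood in the order *Jag2*, *Jag1*, *Dll1* in every group mean. *Jag2* had 73.4 ± 6.16, *Jag1* 59.1 ± 11.8 and *Dll1* 5.86 ± 1.66 CPM per kb in tdTneg SCA-1neg cells (SD, n = 3 each). In tdT+ SCA-1+ cells they had 77.2 ± 22.9, 37.7 ± 10.7 and 21.3 ± 4.65 CPM per kb (SD, n = 3 each). The share of *Dll1* in their sum was 8.19% ± 1.91 in tdT+ SCA-1neg, 4.21% ± 0.876 in tdTneg SCA-1neg and 15.9% ± 1.11 in tdT+ SCA-1+ cells (SD, n = 3 each), and 17.6% ± 4.08 in tdTneg SCA-1+ cells (n = 2). The lowest SCA-1+ library had a *Dll1* share of 14.7%, and the highest SCA-1neg library 10.03%. *Dll1* thus stayed the least abundant of the 3 ligands in SCA-1+ cells at its higher level.

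The genes whose pattern over the 11 libraries was most like that of *Dll1* were *Pnpla1*, *Notch3* and *Crybg3*. Likeness was the root mean square difference of log2 CPM, each gene centred on its mean, and it was 0.17, 0.19 and 0.20 log2 units, where *Dll1* itself ran from -1.45 to 1.15. The second nearest of all genes tested was therefore *Notch3*, another member. *Pnpla1* encodes an enzyme that makes skin barrier lipids.

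**Figure D2:**
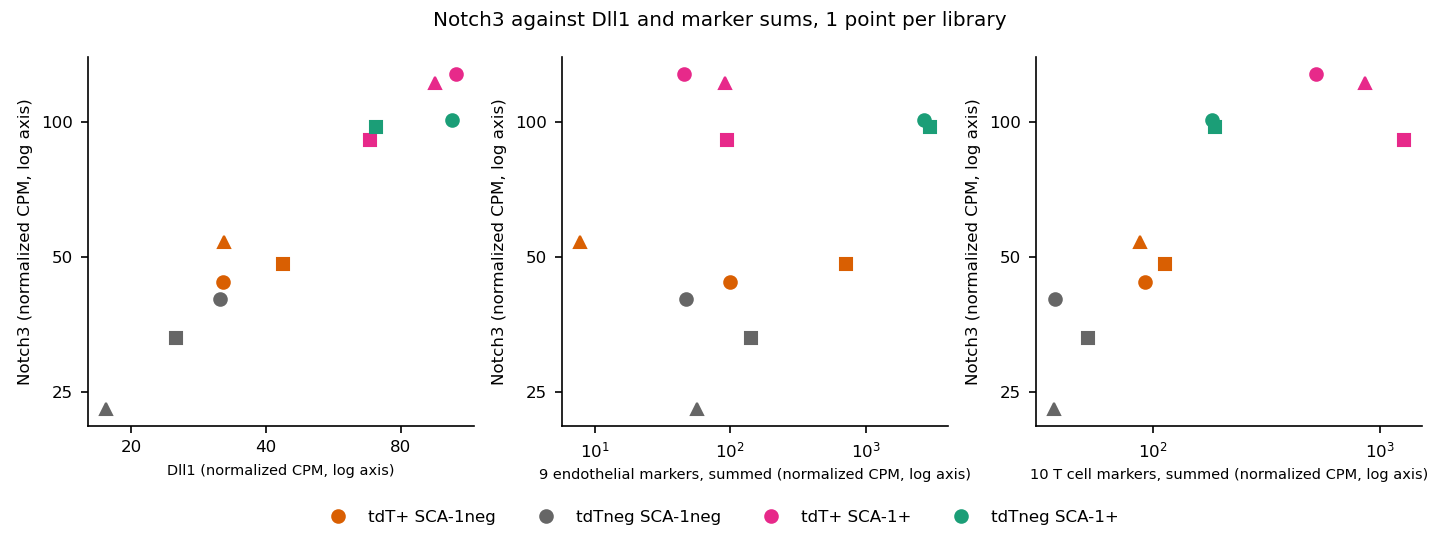
*Notch3* (y axis, normalized CPM, log axis) against *Dll1*, the sum of 9 endothelial markers and the sum of 10 T cell markers (x axes, normalized CPM, log axes), with 1 point per library, colours for the 4 groups and shapes for the replicate number as in the plot of values by group. The 5 SCA-1+ libraries lie above the 6 SCA-1neg libraries in *Notch3* and *Dll1*. Their endothelial sums are 45.9 to 95.1 CPM in tdT+ and 2679 and 3006 CPM in tdTneg libraries.

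Other cell types express these genes too, and in bulk RNA fewer cells of a type and less RNA per cell cannot be told apart. The 9 endothelial markers summed to 2679 and 3006 CPM in the tdTneg SCA-1+ libraries, 45.9 to 95.1 CPM in tdT+ SCA-1+, 7.71 to 721 CPM in tdT+ SCA-1neg and 47.4 to 143 CPM in tdTneg SCA-1neg libraries, the 721 CPM in the library labelled tdT+ SCA-1neg replicate 2. Between SCA-1+ and SCA-1neg cells edgeR called 0 of 9 endothelial markers within tdT+ and 3 of 9, all higher, within tdTneg cells. An unadjusted p under 0.05 was found for 2 and 8 of 9, against 30.5% and 21.1% of all genes. Within tdT+ cells 8 of 9 values were negative (median log2 fold change -2.05), and within tdTneg cells the median was 5.08. With replicate 2 of tdT+ SCA-1neg left out, 3 of 9 were called higher within tdT+ and 7 of 9 within tdTneg cells. Between the populations 5 of 9 were then higher, against 0 with it. *Notch3* is also known from mural cells of vessels. The 8 mural markers summed to 54.6 to 219 CPM in the SCA-1+ and 257 to 448 CPM in the SCA-1neg libraries, most of it *Cspg4*, which was lower in SCA-1+ cells. The other 7 were not called between populations, and they summed to 5.74 to 58.6 CPM in SCA-1neg, 3.30 to 11.8 CPM in tdT+ SCA-1+ and at most 22.6 CPM in tdTneg SCA-1+ libraries. The 10 T cell markers summed to 523 to 1275 CPM in tdT+ SCA-1+, 181.5 to 188 CPM in tdTneg SCA-1+ and 36.7 to 114 CPM in SCA-1neg libraries, and 9 of 10 were higher in SCA-1+ cells, with 8 of 10 within tdT+ and 5 of 10 within tdTneg cells. Of 5 Langerhans cell markers, 4 were higher in SCA-1+ cells (3 with the replicate block), with sums of 225 to 590 CPM against 13.7 to 298 CPM. Within tdT+ cells 0 of 5 and within tdTneg cells 3 of 5 were higher. Without the library labelled tdT+ SCA-1neg replicate 2 these counts were 2 and 4. The part of endothelial cells, mural cells, T cells and Langerhans cells in the *Notch3* and *Dll1* differences was not tested. By edgeR 0 of 6 fibroblast markers and 0 of 10 genes of the dissociation response were called between the populations (0 and 1 with an unadjusted p under 0.05), and 2 of 5 melanocyte markers were lower in SCA-1+ cells. Leaving out the library labelled tdT+ SCA-1neg replicate 2 gave the same counts between the populations for the bulge, mural, T cell, Langerhans, fibroblast, dissociation and melanocyte lists, and 7 of 10 T cell markers within tdT+ cells.

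The target genes *Hes1* and *Hey1*, both repressors of the basic helix-loop-helix type, were not called between the populations. *Hes1* (ENSMUSG00000022528, chromosome 16, 30064384 to 30067796) had 37.4, 43.1 and 71.4 CPM in tdT+ SCA-1neg and 55.2, 54.2 and 58.6 CPM in tdTneg SCA-1neg libraries. It had 76.2, 63.9 and 69.4 CPM in tdT+ SCA-1+ and 55.5 and 66.7 CPM in tdTneg SCA-1+ libraries. The populations overlapped, with a log2 fold change of 0.30 (95% CI -0.07 to 0.66, edgeR adjusted p = 0.231). Without tdT+ SCA-1neg replicate 3, the highest SCA-1neg library of *Hes1*, the value was 0.46 (edgeR adjusted p = 0.0154), and within tdT+ cells it moved from 0.46 to 0.79 (edgeR adjusted p = 0.012). Both then passed the adjusted p and stayed under the fold threshold.

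*Hey1* (ENSMUSG00000040289, chromosome 3, 8663359 to 8667256) was the lowest member, with 12 to 162 counts per library. It had 2.72, 2.09 and 2.37 CPM in tdT+ SCA-1neg, 3.35, 3.49 and 3.20 CPM in tdTneg SCA-1neg, 0.853, 2.39 and 0.619 CPM in tdT+ SCA-1+ and 2.82 and 3.27 CPM in tdTneg SCA-1+ libraries. Replicates 1 and 3 of tdT+ SCA-1+ were under all other libraries. Its log2 fold change between populations was -0.52 (95% CI -1.40 to 0.36, adjusted p = 0.388) and within tdT+ cells -0.90 (adjusted p = 0.28), or -0.99 (edgeR adjusted p = 0.319) when replicate 2 of tdT+ SCA-1neg was left out. Without tdT+ SCA-1+ replicate 2 the latter was -1.71 (edgeR adjusted p = 0.0394) and was called, so this library decided the call. The 6 fibroblast markers summed to 341.5 CPM in this library, against 26.9 and 28.9 CPM in the other tdT+ SCA-1+ libraries, and their part in the *Hey1* level was not tested. *Hey1* is also expressed by endothelial cells, whose marker sums are given above, and their part in its level was not tested.

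In the nuclear complex, *Rbpj* (ENSMUSG00000039191, chromosome 5, 53466152 to 53657362), the DNA-binding partner of all Notch receptors, ranged from 34.4 to 58.6 CPM in SCA-1neg and from 27.0 to 41.3 CPM in SCA-1+ libraries. It was not called (log2 fold change -0.32, 95% CI -0.69 to 0.05, adjusted p = 0.21). The coactivator gene *Maml1* (ENSMUSG00000050567, chromosome 11, 50255634 to 50292311) ranged from 44.9 to 71.1 CPM in SCA-1neg and from 54.7 to 91.5 CPM in SCA-1+ libraries, with a log2 fold change of 0.27 (95% CI -0.09 to 0.63, adjusted p = 0.27). *Rbpj* and *Maml1* both overlapped between populations.

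**Figure D3:**
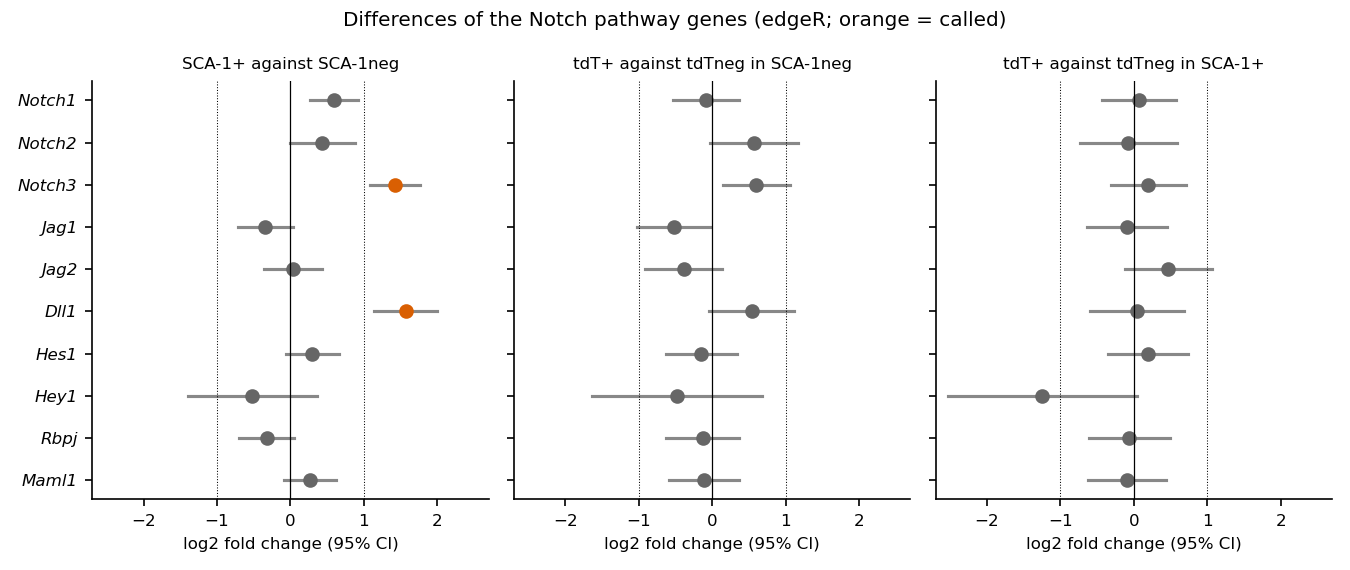
Log2 fold change (x axis; bars, 95% CI; dotted lines, the fold threshold) of the 10 genes (y axis) for SCA-1+ against SCA-1neg cells and for tdT+ against tdTneg cells in each population, from edgeR, with called genes in orange. *Notch3* (1.42) and *Dll1* (1.57) are the only orange points, both in the comparison of populations.

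Between tdT+ and tdTneg cells, edgeR called 0 of 10 members in either population. In SCA-1neg cells 0.00985% of all genes were called, and *Notch3* and *Jag1* had an unadjusted p under 0.05, against 8.42% of all genes. The log2 fold change was 0.60 for *Notch3* (SE 0.21, adjusted p = 0.471) and -0.52 for *Jag1* (SE 0.22, adjusted p = 0.577). Libraries of tdT+ and tdTneg SCA-1neg cells did not overlap for *Notch3*, *Jag1*, *Dll1* and *Hey1*, 4 of 10 members, against 16% of all genes. The *Dll1* value was 0.54 (SE 0.26, adjusted p = 0.612) and that of *Hey1* -0.48 (SE 0.52, adjusted p = 0.84). Without the library labelled tdT+ SCA-1neg replicate 2 the values were 0.61 for *Notch3*, -0.56 for *Jag1*, 0.38 for *Dll1* and -0.39 for *Hey1*, and 0 members were called. The remaining 6 members lay between -0.39 (*Jag2*) and 0.57 (*Notch2*).

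In SCA-1+ cells 2.31% of all genes were called between tdT+ and tdTneg cells. 0 members had an unadjusted p under 0.05 in edgeR, against 14.6% of all genes, and DESeq2 called 0 members in either population. *Hey1* had the largest value, -1.25 (SE 0.58, 95% CI -2.53 to 0.04, adjusted p = 0.361), and was the 1 member of 10 whose libraries did not overlap, against 33% of all genes. Without tdT+ SCA-1+ replicate 2 its value was -2.09 (edgeR adjusted p = 0.0603). The 9 others lay between -0.09 (*Maml1* and *Jag1*) and 0.47 (*Jag2*). For *Notch3* the difference was 0.20 (95% CI -0.31 to 0.71) and for *Dll1* 0.05 (95% CI -0.59 to 0.69). In this comparison edgeR called 2 of 9 endothelial markers lower and 4 of 10 T cell markers higher in tdT+ cells (1 and 3 with the replicate block). Without the library labelled tdT+ SCA-1neg replicate 2 these counts were 7 and 5. All 9 endothelial values were negative, with an unadjusted edgeR p under 0.05 and no overlap of libraries. Their median log2 fold change was -5.18. Of 8 bulge markers 4 were lower, and of 8 mural markers 1. The part of these cell types in the members' values was not tested.

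Whether the effect of tdT differed between SCA-1+ and SCA-1neg cells was tested as an interaction, which was called for 0 of 10 members by edgeR and by DESeq2, against 0.389% of all genes. *Jag2* alone had an unadjusted p under 0.05, as had 12.4% of all genes, with a difference of 0.86 (SE 0.36, adjusted p = 0.369). It came from a *Jag2* value of -0.39 in SCA-1neg and of 0.47 in SCA-1+ cells, neither of which passed the test. Without the library labelled tdT+ SCA-1neg replicate 2 the *Jag2* difference was 0.78 (edgeR adjusted p = 0.521).

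The rest of the pathway was read from 57 further genes, of which 55 were tested. *Dlk1*, a non-canonical ligand, and the target *Hes5* were too low, at 0 to 0.269 and 0 to 0.0976 CPM. Between the populations 1 of 55 was higher and 1 lower, against the 4.77% and 6.79% of all genes given above, with a median log2 fold change of 0.00. *Neurl3*, which encodes a RING-type protein of the family that ubiquitinates Notch ligands, had 11.4, 38.4 and 4.13 CPM in tdT+ SCA-1neg and 1.90 to 2.73 CPM in tdTneg SCA-1neg libraries. It had 42.0, 91.6 and 60.9 CPM in tdT+ SCA-1+ and 105 and 102 CPM in tdTneg SCA-1+ libraries, a log2 fold change of 3.63 (SE 0.49, edgeR adjusted p = 0.00108). Its values did not overlap between the populations. *Dtx3* of the deltex family fell by 1.04 on the log2 scale (SE 0.13, adjusted p = 0.000651), from 96.9 to 187 CPM in SCA-1neg to 48.2 to 102.5 CPM in SCA-1+ libraries, which overlapped. The *Dtx3* value lay close to the fold threshold and was under it, at -0.94 to -0.99, without tdT+ SCA-1neg replicate 3, tdTneg SCA-1neg replicate 1 or tdTneg SCA-1+ replicate 1. Without the library labelled tdT+ SCA-1neg replicate 2 edgeR called 3 of 55 higher and 2 lower. *Neurl3* (4.23) and *Dtx3* (-1.03) were among them, and the others were *Mfng* and *Dtx1*, at no more than 19.8 and 3.39 CPM in any library, and *Lfng* (-1.05).

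Within tdT+ cells 2 of 55 were higher and 2 lower in SCA-1+ cells, against 2.91% and 5.54% of all genes. *Dtx2*, another deltex gene, rose by 1.30 (SE 0.14, adjusted p = 0.000683) and *Fbxw7*, a ubiquitin ligase subunit that marks the Notch intracellular domain for degradation, by 1.01 (SE 0.17, adjusted p = 0.00467). *Lfng*, a glycosyltransferase that alters how Notch responds to its ligands, fell by 1.22 (SE 0.23, adjusted p = 0.00878), and *Dtx3* fell by 1.18 (SE 0.17, adjusted p = 0.00216). *Lfng* had 47.6, 51.7 and 83.8 CPM in tdT+ SCA-1neg and 22.1, 25.4 and 31.0 CPM in tdT+ SCA-1+ libraries, without overlap. Without the library labelled tdT+ SCA-1neg replicate 2 these calls within tdT+ cells were again past both thresholds, at 1.37 for *Dtx2*, -1.33 for *Lfng* and -1.16 for *Dtx3*, with edgeR adjusted p from 0.00187 (*Dtx2*) to 0.0126 (*Lfng*), and 0.00845 for *Fbxw7*. In that fit 4 of 55 were higher and 3 lower, the further ones being *Neurl3* (3.06, against 1.85 with the library), *Dtx1*, and *Dtx4* (-1.28, against -0.91). *Dtx1* was at 0 CPM in replicates 1 and 3 of tdT+ SCA-1neg and at 0.24 to 0.568 CPM in the tdT+ SCA-1+ libraries. The *Fbxw7* value was 0.86 to 0.98, under the fold threshold, without replicate 1 or 3 of tdT+ SCA-1neg or replicate 1 or 2 of tdT+ SCA-1+, and that of *Lfng* was -0.93 without tdT+ SCA-1neg replicate 3. With the replicate block *Fbxw7* was not called (0.99, edgeR adjusted p = 0.00713) and *Neurl3* was called within tdT+ cells (2.17, edgeR adjusted p = 0.0374). Within tdTneg cells 2 of 55 were higher and 0 lower, against 3.29% and 1.45% of all genes. They were *Neurl3* (5.40, SE 0.76, adjusted p = 0.00694) and *Adam10* (1.06, SE 0.14, adjusted p = 0.00681), the protease that cleaves ligand-bound Notch. *Adam10* had 112, 88.7 and 98.0 CPM in tdTneg SCA-1neg and 211 and 203.5 CPM in tdTneg SCA-1+ libraries. Without tdTneg SCA-1+ replicate 1, with 1 library left in that group, the values were about as large, at 5.37 for *Neurl3* (edgeR adjusted p = 0.0516) and 1.02 for *Adam10* (edgeR adjusted p = 0.0698), and were not called, and without tdTneg SCA-1neg replicate 2 the *Adam10* value was 0.98. Between tdT+ and tdTneg cells 0 of 55 were called by edgeR in either population, with or without the library labelled tdT+ SCA-1neg replicate 2, with 6 at an unadjusted p under 0.05 in SCA-1neg and 12 in SCA-1+ cells, against 8.42% and 14.6% of all genes. *Neurl3* and *Adam10* were highest in the 2 tdTneg SCA-1+ libraries, where the endothelial marker sum was highest too, and the part of endothelial cells was not tested.

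**Figure D4:**
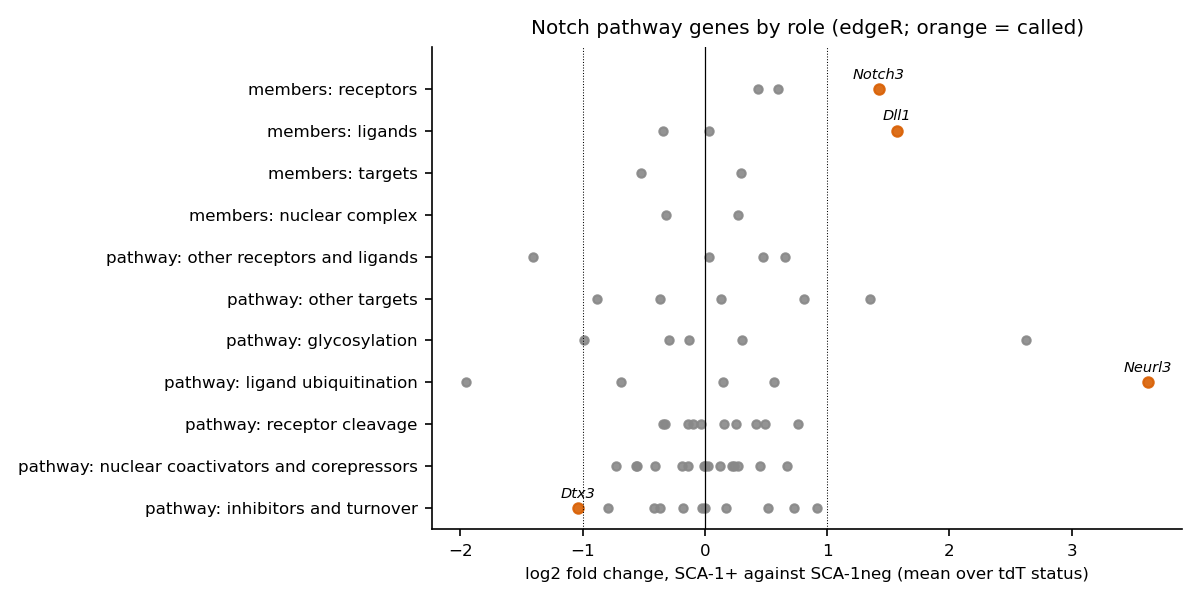
Log2 fold change of SCA-1+ against SCA-1neg cells (x axis; dotted lines, the fold threshold) for the 10 members and 55 further pathway genes grouped by role (y axis), 1 point per gene, with genes called by edgeR in orange and named. *Notch3*, *Dll1* and *Neurl3* are on the right and *Dtx3* on the left, while most points lie between the dotted lines.

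Of 10 genes of epidermal differentiation and basal keratinocytes listed beside the pathway, 4 were higher in SCA-1+ cells and 0 lower, against 4.77% and 6.79% of all genes. Without the library labelled tdT+ SCA-1neg replicate 2 these 4 were called too, with 5 of 10 higher, and with the replicate block 5 were higher. *Krt1* and *Krt10*, the keratins of suprabasal cells, had log2 fold changes of 2.97 (SE 0.56, edgeR adjusted p = 0.00554) and 2.23 (SE 0.55, adjusted p = 0.0203). Without tdTneg SCA-1+ replicate 1 the *Krt10* value was 1.79 (edgeR adjusted p = 0.109) and was not called. *Cdkn1a*, a cell cycle inhibitor known as a Notch target in keratinocytes, rose by 1.36 (SE 0.17, adjusted p = 0.000636), and the basal keratin gene *Krt14* by 1.29 (SE 0.19, adjusted p = 0.00156). *Cdkn1a* had 79.8 to 179 CPM in SCA-1neg and 257 to 403 CPM in SCA-1+ libraries and so, like *Notch3* and *Dll1*, did not overlap. Within tdT+ cells 3 of 10 were higher, among them *Cdkn1a* and *Krt14*, against 2.91% of all genes. The count was also 3 without the library labelled tdT+ SCA-1neg replicate 2, with *Cdkn1a* at 1.38 and *Krt14* at 2.04. The count was 1 without tdT+ SCA-1neg replicate 1, where *Cdkn1a* was at 0.99 (edgeR adjusted p = 0.017), and 2 without replicate 3 of tdT+ SCA-1neg or of tdT+ SCA-1+. With the replicate block *Krt1* was higher within tdT+ cells as well (2.7, edgeR adjusted p = 0.0376, against 0.0582 without the block). Within tdTneg cells 2 of 10 were higher, against 3.29% of all genes, namely *Krt1* (3.45, adjusted p = 0.0393) and *Cdkn1a* (1.52, adjusted p = 0.0104). The call of *Krt1* within tdTneg cells was lost in 8 of 11 fits that left out 1 library, with values from 2.86 to 3.92 and edgeR adjusted p up to 0.271. *Cdkn1a* there had an edgeR adjusted p of 0.0953 without tdTneg SCA-1+ replicate 1. Between tdT+ and tdTneg cells 0 of 10 were called in either population, with or without the library labelled tdT+ SCA-1neg replicate 2, with 3 at an unadjusted p under 0.05 in SCA-1neg and 2 in SCA-1+ cells, against the same 8.42% and 14.6% of all genes.

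Some member exons share bases with other genes, and the library kit does not mark strand, so such reads cannot be assigned with certainty. For *Notch3* the antisense gene Gm17276 held 0 to 59 counts, at most 4.74% of the *Notch3* count, and for *Dll1* A930024N18Rik held 13 to 188 counts, at most 7.92% of the *Dll1* count. The partners of *Notch1*, *Notch2* and *Maml1* held at most 4.02% of their member's count. These counts of the partners do not measure how many reads fell in the shared bases.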

How the data were processed

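The deposited files hold whole-number counts per Ensembl gene, which the authors made by alignment with STAR to mm10 (Ensembl release 96) and counting with featureCounts, without normalization. The strand setting is not given in the sources used here. Groups and replicate numbers came from the labels, and symbols and positions from GENCODE M21 on GRCm38. The row outside the Ensembl genes held 0.000205% to 0.0307% of each library and was kept out of totals and tests. Counts of all 11 libraries were fitted in R 4.3.3 with edgeR 4.0.16 (TMM, filterByExpr on the 4 groups, 1 mean per group, glmQLFit and glmQLFTest), adjusted over all genes tested by the Benjamini-Hochberg method, with calls at an adjusted p under 0.05 and a log2 fold change over 1 in size. DESeq2 1.42.0, other scalings and filters, the replicate block and the omission of each library were alternatives. The fit was tested on simulated data, and no result of that test is given here. Normalized CPM use TMM library sizes, and CPM per kb divide these by the union of exons. The extra row is scaled to plain totals. Figures and motif counts used Python.

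The members and lists were chosen with earlier results of these data known. The text names all members, listed pathway and epidermal genes called in at least 1 comparison or too low to test, and the 3 genes nearest in pattern to the member with the largest rise; no member fell. A listed item is not reported here. *Cd34*, *Cspg4*, *Mfng*, *Dtx1*, *Dtx4* and the antisense partners were named after their values were seen. The study's methods describe biological replicates of 2 pooled mice that were sorted into the 4 populations, so libraries of one number were taken to share their mice, and the number was fitted as a block in an alternative. Deviations from group means correlated over 0.1 in 7 of 15 same-numbered pairs (median 0.083, from -0.42 to 0.59, against a median of -0.023 over 30 other pairs), and 7 of 11 libraries correlated best with one of their own number. P-values measure the spread between these libraries. Replicate libraries differed by more than counting noise.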

Additional observations from a re-analysis of the deposited data

Results flagged for a closer look

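The row outside the Ensembl genes, which no comparison uses, held 133.3 to 307.4 CPM in 5 of the 6 tdT+ libraries, above the 2.54 to 4.89 CPM of the 5 tdTneg libraries. The library labelled tdT+ SCA-1neg replicate 2 held 2.05 CPM.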

How the results depend on the processing

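*Notch3* and *Dll1*, 2 of 10 members, were called between the populations under all 16 alternatives of the mean over tdT status, with log2 fold changes from 1.33 to 1.52 and from 1.41 to 1.73. Within tdT+ cells both were called under all 17. Within tdTneg cells the number of members called ran from 0 to 2 over the fits that left out 1 library, 0 without tdTneg SCA-1+ replicate 1, and the cause was not tested. With the replicate block the *Notch3* value was 1.41 (edgeR adjusted p = 0.00124) and the *Dll1* value 1.52 (edgeR adjusted p = 0.0016) and the block changed no call of a member. Among the other genes and markers whose calls are described, it changed those given beside them and no other. Members called between tdT+ and tdTneg cells stayed at 0 under every alternative run. Of 1000 values of members under an alternative, 40 had another sign than the main value, in results called in neither fit and with main values of at most 0.146 (absolute log2); 0 called values changed sign. DESeq2 called more genes, 3540 against 2347 between populations, 3423 against 1715 within tdT+, 2162 against 963 within tdTneg, 377 against 2 and 1230 against 470 between tdT+ and tdTneg in SCA-1neg and SCA-1+ cells, and 845 against 79 for the difference. The block moved the count in SCA-1neg cells from 2 to 4. In the interaction, RLE size factors moved the median over all genes by -0.118. With 2 tdTneg SCA-1+ libraries and 12 to 162 counts, *Hey1* is the least precise member.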
